A study of Homo sapiens with 30 samples.

Results

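The immediate early response genes considered here are 10 genes whose short-lived mRNAs are induced within minutes of a stimulus: FOS, FOSB, JUN, JUNB, EGR1, IER2, IER3, ATF3, DUSP1 and ZFP36. They were chosen by gene symbol, not by a measured value, though with earlier results of these data known. All 10 were found among the 27630 genes of the count tables. All 10 also passed the filter on low counts, which kept 16504 genes for testing.

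RNA was sequenced from HEK293FT cells, which derive from human embryonic kidney, in 8 libraries that form 4 groups of 2. All 8 came from unsynchronised cells transfected by lipofection with a construct of APEX2 and lamin B1. APEX2 is an engineered peroxidase that tags molecules close to it, and lamin B1 places it at the nuclear lamina, the protein mesh beneath the inner nuclear membrane. The nuclear fraction and the cytosolic fraction make up 2 of the groups. The others are RNA recovered by APEX2 tagging without fixation (native lamina) and RNA recovered in the same way with paraformaldehyde, a crosslinking fixative (PFA lamina). The labels name no unlabelled or untransfected library, so the fractions are the background for the lamina preparations, and transfection is shared by every library. They also do not say whether libraries of a group came from separate cultures, so the p-values measure the spread between these libraries, which may be technical.

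Immediate early genes are switched on by signalling kinases that act on transcription factors already present in the cell, so no new protein is needed first. FOS, FOSB, JUN, JUNB and ATF3 encode basic leucine zipper proteins that pair on DNA as AP-1 and related dimers, and EGR1 encodes a zinc finger transcription factor. DUSP1 encodes a phosphatase that switches MAP kinases off, ZFP36 encodes tristetraprolin, a protein that binds AU-rich elements and speeds the decay of mRNAs, and IER2 and IER3 encode regulators of transcription and of cell survival. Their mRNAs pass quickly from transcription through export to decay.

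The 250 bases before the annotated start of transcription are shown for FOS and FOSB, related genes whose ratio was higher in the nuclear libraries than in the others, for EGR1, which varied most within 3 of the 4 groups, and for JUN and DUSP1, which were called higher at both lamina preparations. Sequences are from RefSeq on GRCh38.p14 and are written 5′ to 3′ along the gene, with motif matches in capitals.
FOS, chr14:75278578-75278827, plus strand: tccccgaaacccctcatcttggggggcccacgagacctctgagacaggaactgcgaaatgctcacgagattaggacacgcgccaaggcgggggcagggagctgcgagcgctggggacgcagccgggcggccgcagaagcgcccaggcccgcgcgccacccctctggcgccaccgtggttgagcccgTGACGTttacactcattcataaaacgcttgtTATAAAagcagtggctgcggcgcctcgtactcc
FOSB, chr19:45467746-45467995, plus strand: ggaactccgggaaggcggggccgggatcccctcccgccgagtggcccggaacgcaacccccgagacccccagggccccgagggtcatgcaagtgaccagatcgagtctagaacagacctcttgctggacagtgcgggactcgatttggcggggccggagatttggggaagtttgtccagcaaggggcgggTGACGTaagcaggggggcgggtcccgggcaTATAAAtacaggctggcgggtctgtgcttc
EGR1, chr5:138465229-138465478, plus strand: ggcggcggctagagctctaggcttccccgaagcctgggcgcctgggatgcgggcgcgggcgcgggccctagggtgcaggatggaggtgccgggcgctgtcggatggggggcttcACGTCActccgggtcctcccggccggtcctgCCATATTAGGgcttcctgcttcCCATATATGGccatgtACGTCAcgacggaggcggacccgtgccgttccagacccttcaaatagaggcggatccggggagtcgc
JUN, chr1:58784048-58784297, minus strand: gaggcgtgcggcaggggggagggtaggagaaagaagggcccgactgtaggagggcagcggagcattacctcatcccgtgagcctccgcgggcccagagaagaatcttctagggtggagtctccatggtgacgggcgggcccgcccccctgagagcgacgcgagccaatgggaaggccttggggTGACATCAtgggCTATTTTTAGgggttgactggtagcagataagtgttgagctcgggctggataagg
DUSP1, chr5:172771196-172771445, minus strand: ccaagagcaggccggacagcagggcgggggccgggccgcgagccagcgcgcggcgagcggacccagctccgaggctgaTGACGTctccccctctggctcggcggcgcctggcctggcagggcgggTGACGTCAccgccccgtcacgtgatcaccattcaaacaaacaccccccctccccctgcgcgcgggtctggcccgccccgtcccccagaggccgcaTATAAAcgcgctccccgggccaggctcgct
The motifs searched were TGACGT, the core of the cAMP response element, TGACATCA, an AP-1-like site, the CArG box bound by serum response factor and the MEF2 box, on both strands, and TATAAA on the strand of the gene. The table of promoters held 9 of the 10 genes in 10 windows, since ATF3 has an extra start site. A gene counts if any of its windows holds the motif, while the background is per window. TGACGT was found in 4 of these 9 (FOS, FOSB, EGR1 and DUSP1) and in 7.1% of all 35116 windows of 250 bases. TATAAA was found in 5 of 9 (FOS, FOSB, JUNB, ATF3 and DUSP1) and in 6.8% of windows. In ATF3 it lies 230 bases before the start, farther than in the others. FOS and FOSB both hold TGACGT, 64 and 60 bases before the start, and TATAAA, 33 and 30 bases before it. EGR1 holds 2 CArG boxes, 105 and 83 bases before the start, and a CArG box is in 1.16% of windows. JUN holds TGACATCA 67 bases and a MEF2 box 55 bases before the start, against 2.37% and 0.515% of windows. In DUSP1, 2 of the 3 TGACGT matches overlap on opposite strands. IER2 and ZFP36 hold none of the 5 motifs in this window. A match is a stretch of letters and says nothing about binding in these cells.

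On hg19, the build of the count tables, 4 of the 10 genes lie on chromosome 19, which holds 6.97% of the genes tested: JUNB at chr19:12902310-12904125, IER2 at chr19:13261282-13265718, ZFP36 at chr19:39897487-39900052 and FOSB at chr19:45971253-45978437, all on the plus strand. FOS is at chr14:75745481-75748937 and EGR1 at chr5:137801181-137805004, both on the plus strand. JUN at chr1:59246463-59249785 and DUSP1 at chr5:172195093-172198203 are on the minus strand. ATF3 spans chr1:212738676-212794119 on the plus strand, and IER3 is at chr6:30710976-30712327 on the minus strand. The genes are compact. Their genomic span had a median of 3390 bases, against 24511 over all genes tested, and ATF3, at 55444 bases, was the exception. JUN and JUNB have a single exon, and 9 of the 10 have at most 4 exon blocks, against 25.9% of genes tested. No other gene in the tables has exons that overlap those of any of the 10, although strand was ignored in counting. IER3 is listed on chromosome 6 and also on 5 alternative haplotype sequences, so reads that align to several copies make its count uncertain.

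Total counts ran from 2321291 in the second PFA lamina library to 8557777 in the first native lamina library. A count of 3 equals 0.312 to 1.10 CPM, the count relative to library size after scaling by the trimmed mean of M values (TMM), which is the normalised unit used throughout. LMNB1, the gene of the transfected construct, took 0.304% to 0.520% of counts in the fractions, 8.89% and 9.49% at the PFA lamina, and 8.60% and 2.96% in the native lamina libraries. The header of the first cytosolic library gives a nuclear output name beside a cytosolic input. Of 7 markers of HEK293-type cells, 6 were above 3 counts in all 8 libraries. Of 6 markers of erythroleukaemia cells none was, with HBG1, HBG2 and HBZ at or below 3 counts throughout, and CDX1 of the colon markers and PTPRC, CD3E and LYZ of the white blood cell markers were likewise at or below 3. Normalised values are shares of each library's own RNA, so they give no amount per cell, and in bulk RNA fewer cells with a transcript and less of it per cell cannot be told apart.

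Together the 10 genes took 0.0386% and 0.0537% of nuclear counts, 0.102% and 0.152% of cytosolic counts, 0.138% and 0.227% of native lamina counts, and 0.0906% and 0.138% of PFA lamina counts. The nuclear libraries held the smallest shares. JUN gave 7112 of the 11837 and 7881 of the 13598 counts of the 10 genes in the native lamina libraries. In the cytosolic libraries JUN gave 3911 of 7442 and 2894 of 8815, and in the nuclear ones 1264 of 2518 and 1157 of 3601. At the PFA lamina it gave 2902 of 5306 and 1498 of 3211, so these shares weigh JUN most. The widest of the 95% Wilson intervals, which cover counting error only because reads that carry no molecular identifier need not come from different molecules, was that of the second PFA lamina library, 0.134% to 0.143%.

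Per length, JUN was the most abundant of the 10. JUN measured 197 and 199 CPM in nuclear, 523 and 612 in cytosolic, 739 and 1161 in native lamina and 536 and 551 in PFA lamina libraries. The nuclear libraries were the lowest and the native lamina libraries the highest, with no overlap between those groups and the others. Divided by exonic length in kilobases, its mean level was 59.5 CPM per kb in the nuclear fraction and 286.0 at the native lamina, and averaged over all libraries it stood at percentile 99.1 of the genes tested. ATF3 followed at percentile 96.8, EGR1 at 95.2, IER2 at 93.8 and DUSP1 at 92.7. FOS stood at 83.2, JUNB at 73.9, IER3 at 71.0, ZFP36 at 53.1 and FOSB, the lowest of the 10, at 50.6. All 10 stood at or above the middle of the tested range.

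**Figure D1:**
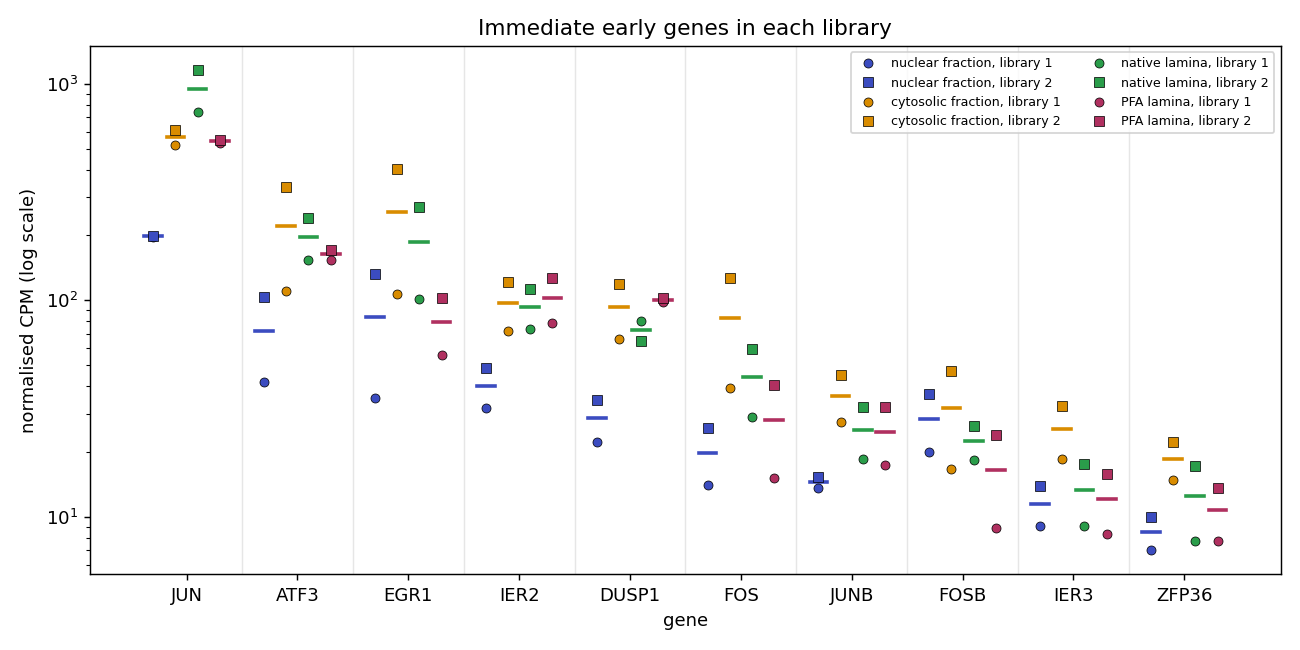
Normalised CPM (log axis) of each of the 10 genes, ordered by mean CPM, in the 8 libraries; circles are library 1 and squares library 2 of each group, and bars are group means (n = 2). JUN lies lowest in the 2 nuclear libraries (197 and 199 CPM) and highest in the 2 native lamina libraries (739 and 1161 CPM), while EGR1 and FOS spread widely within groups.

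The first comparison asks how the transcripts were divided between nucleus and cytosol. Of the 10 genes, 7 had lower nuclear than cytosolic levels and none had higher, where 21.2% of all genes tested were called lower and 26.1% higher. The median log2 fold change was -1.42 over the 10 genes and 0.13 over all genes tested. A call is an adjusted p under 0.05 from the quasi-likelihood test of edgeR with Benjamini-Hochberg adjustment over 16504 genes, fitted to all 8 libraries.

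FOS, the partner of JUN in AP-1, measured 14.0 and 25.6 CPM in nuclear and 39.2 and 126.7 CPM in cytosolic RNA. The groups did not overlap, and the second cytosolic library was far above the first. FOS fell by 2.06 on the log2 scale (SE 0.57, edgeR adjusted p = 0.0108). DUSP1 measured 22.3 and 34.7 CPM in the nuclear and 66.6 and 118.8 in the cytosolic libraries. The DUSP1 change was -1.70 (SE 0.34, edgeR adjusted p = 0.00207), the smallest adjusted p of the 10. JUN fell by 1.52 (SE 0.32, edgeR adjusted p = 0.0027), from the values given above. ATF3, a stress-induced relative of the AP-1 proteins, measured 42.0 and 103.1 CPM in the nuclear and 110.2 and 332.8 in the cytosolic libraries. Its groups lay close, with the higher nuclear library just under the lower cytosolic one, and the change was -1.61 (SE 0.50, edgeR adjusted p = 0.0179).

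JUNB, a JUN relative with weaker activation of transcription, measured 13.5 and 15.3 CPM in the nuclear and 27.4 and 45.3 in the cytosolic libraries. IER2 measured 31.9 and 48.5 against 71.9 and 122.2 CPM. IER3 measured 9.03 and 13.9 against 18.6 and 32.6 CPM. In all 3 both cytosolic libraries were above both nuclear ones. JUNB changed by -1.33 (SE 0.39, edgeR adjusted p = 0.0147) and IER2 by -1.27 (SE 0.37, edgeR adjusted p = 0.0129). IER3 changed by -1.15 (SE 0.45, edgeR adjusted p = 0.0488). The IER3 call was lost with size factors of DESeq2 (edgeR adjusted p = 0.0514), with total counts (0.0684) and with the Wald test of DESeq2 (0.0511).

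The other 3 genes were not called. EGR1 measured 35.5 and 132.1 CPM in the nuclear and 107 and 404.3 in the cytosolic libraries, so that the groups overlapped, and its difference was -1.61 (SE 0.66, edgeR adjusted p = 0.0599). ZFP36 measured 7.0 and 9.97 against 14.7 and 22.2 CPM, without overlap, and its difference was -1.12 (SE 0.46, edgeR adjusted p = 0.0615). FOSB measured 19.9 and 36.8 against 16.6 and 47.2 CPM, and its difference was -0.16 (SE 0.51, edgeR adjusted p = 0.815). The 95% interval for FOSB ran from -1.25 to 0.94, so a change of 2-fold lower is within it.

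The count rested on single libraries. Where a library is left out of a group compared, the fit assumes that the other one varies like the remaining groups. The share of all genes called was not counted for these fits, so the counts below have no background beside them. Without the first nuclear library or without the second cytosolic library, 2 of the 10 genes were called, DUSP1 and JUN in both cases. FOS was then at -1.69 (edgeR adjusted p = 0.1) and -1.01 (0.19). Without the first cytosolic library 8 were called, and without any one lamina library 9.

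Within each library, the ratio of FOSB to FOS per base of exon was 0.813 and 0.821 in nuclear libraries. It was 0.242 and 0.213 in cytosolic, 0.362 and 0.253 in the native lamina and 0.335 and 0.335 in the PFA lamina libraries. Both nuclear values were above all 6 others, and the nuclear mean of 0.817 ± 0.0057 (SD, n = 2) compares with 0.227 ± 0.021 in the cytosol. A ratio within a library does not depend on scaling between libraries. The nuclear difference was seen in these values and was not tested.

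**Figure D2:**
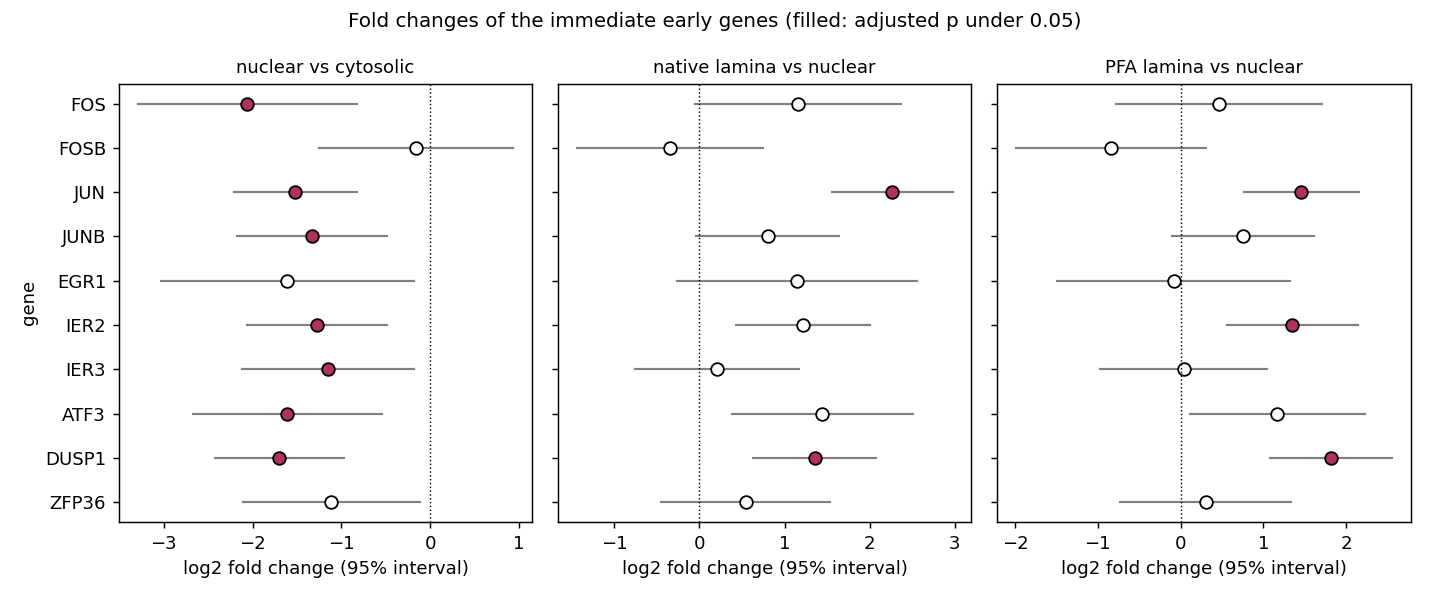
Log2 fold changes with 95% intervals of the 10 genes in 3 comparisons (fit of all 8 libraries by edgeR); filled points have an adjusted p under 0.05. In the nuclear fraction against the cytosol 7 genes are filled, all below 0, and against the nuclear fraction JUN and DUSP1 are filled at both lamina preparations and IER2 at the PFA lamina.

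The next comparisons ask which transcripts were more abundant in RNA tagged at the lamina than in the nuclear fraction. They share the nuclear libraries, so their values are given side by side and their likeness is not a result. At the native lamina 2 of the 10 genes were higher and none lower, against a background of 3.87% of genes called higher and 3.44% called lower. The PFA lamina gave 3 higher and none lower, against 9.63% and 7.81% of genes. The median log2 difference of the 10 genes was 1.16 in native and 0.61 in PFA preparations, and that of all genes was -0.07 and -0.04. Scaling by total counts alone moved the median of all genes by 0.28 and 0.17. Among called genes, those called higher then made up 87.5% in place of 52.9% for the native, and 78.7% in place of 55.2% for the PFA preparation.

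JUN was higher than in the nuclear fraction by 2.26 at the native lamina (SE 0.33, edgeR adjusted p = 0.00517), which is 4.81-fold. At the PFA lamina JUN was higher by 1.46 (SE 0.32, edgeR adjusted p = 0.013). Both calls were lost without either nuclear library, with the size of the difference kept: 2.26 and 2.29 at the native lamina (edgeR adjusted p = 0.109 and 0.0709), and 1.45 and 1.48 at the PFA lamina (0.128 and 0.0781). DUSP1 measured 80.5 and 65.0 CPM at the native and 98.1 and 102.6 at the PFA lamina, above both nuclear libraries in each. DUSP1 was higher by 1.35 in the native (SE 0.34, edgeR adjusted p = 0.0336) and by 1.82 in the PFA preparation (SE 0.34, edgeR adjusted p = 0.00824). The native call was lost without any one of the 4 libraries compared (1.07 to 1.72), and the PFA call without the first nuclear library (1.53, edgeR adjusted p = 0.121).

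IER2 measured 73.5 and 112.9 CPM at the native and 78.7 and 126.5 at the PFA lamina, and all 4 values were above the nuclear ones. Its difference was 1.35 at the PFA lamina (SE 0.37, edgeR adjusted p = 0.0275), and the call was lost without either nuclear library and with a fit of only the 4 libraries compared (edgeR adjusted p = 0.0624). In the native preparation it was 1.21 and not called (edgeR adjusted p = 0.0591). ATF3 measured 153.5 and 240.6 CPM at the native and 154.1 and 171.8 at the PFA lamina, above both nuclear libraries, with differences of 1.44 (edgeR adjusted p = 0.0821) and 1.17 (0.112).

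The remaining 6 genes were not called against the nuclear fraction in either preparation. At the native lamina FOS and EGR1 of these 6, with IER2 and ATF3, were called higher without the filter on low counts and in a fit of only the 4 libraries compared, in which 12.5% of all genes were higher. FOS measured 28.9 and 59.7 CPM in native and 15.2 and 40.8 CPM in PFA libraries, with differences of 1.16 and 0.47. JUNB, at 18.4 and 32.1 CPM and at 17.4 and 32.0 CPM, differed by 0.80 and 0.75, its lamina libraries all being above the nuclear ones. EGR1 measured 101.3 and 271 CPM in native and 55.8 and 103 CPM in PFA libraries. Its differences were 1.15 and -0.09, and the second turned to 0.19 with total counts. ZFP36 measured 7.69 and 17.2 CPM and 7.76 and 13.6 CPM, and IER3 measured 9.04 and 17.5 CPM and 8.32 and 15.8 CPM. Their differences were 0.55 and 0.30 for ZFP36 and 0.21 and 0.04 for IER3, where the last is -0.001 with size factors of DESeq2. FOSB was the one gene with a negative difference at both preparations, -0.35 and -0.84. FOSB measured 18.3 and 26.4 CPM in native and 8.87 and 23.9 CPM in PFA libraries. Without the second PFA library, the shallowest of the 8, the PFA difference of FOSB was -1.66 (edgeR adjusted p = 0.028). That p assumes that the lone PFA library left varies like libraries of the other groups, so it is no call for FOSB.

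Against the cytosolic fraction, none of the 10 genes was called at the native lamina, where 6.99% of all genes were higher and 6.77% lower. At an unadjusted p under 0.05 there was 1, JUN, whose native libraries were both above the cytosolic ones by 0.74 (SE 0.32, edgeR adjusted p = 0.123). With total counts the JUN difference was 1.05 (edgeR adjusted p = 0.0451), a setting in which 73.9% of all called genes were called higher, in place of 50.8%. At the PFA lamina none was called against the cytosol, where 0.527% of all genes were higher and 0.145% lower, and 3 had an unadjusted p under 0.05. These were EGR1 at -1.69 (edgeR adjusted p = 0.168), FOS at -1.60 (0.14) and IER3 at -1.11 (0.187). Both PFA libraries were below both cytosolic ones for EGR1 and IER3, while FOS overlapped. DESeq2's Wald test called none of the 10 in either comparison.

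Between the PFA and the native lamina none of the 10 was called, and 0% of all genes was called higher and 0% lower. JUN had an unadjusted p under 0.05 and was the only one, at -0.81 with a 95% interval from -1.49 to -0.13 (edgeR adjusted p = 0.397). Its PFA libraries were both below the native ones. DUSP1 lay the other way without overlap, at 0.46 (edgeR adjusted p = 0.619). These tests do not show that the preparations gave equal levels.

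With the 4 lamina libraries set against the 4 fraction libraries none of the 10 was called, where 0.103% of all genes were higher and 0.115% lower, and 3 had an unadjusted p under 0.05. JUN was closest, higher by 1.10 (SE 0.23, edgeR adjusted p = 0.0658). It was called with total counts (1.34, edgeR adjusted p = 0.0204), without the filter on low counts (0.00172), with the Wald test of DESeq2 (5.46e-05) and without either PFA library (0.0155 and 0.0207). DUSP1 was at 0.74 (edgeR adjusted p = 0.165) and IER2 at 0.65 (0.247). For none of the 10 did the 4 lamina libraries lie wholly above or below the 4 fraction libraries, where 2.17% of all genes did so above and 1.76% below. In this comparison total counts moved the median of all genes by 0.23, and 92.4% of called genes were then called higher, in place of 47.2%.

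Ratios of related genes within a library avoid this scaling. The ratio of JUN to JUNB per base was 7.94 and 7.10 in the nuclear, 10.4 and 7.39 in the cytosolic, 22.0 and 19.8 in the native lamina and 16.9 and 9.41 in the PFA lamina libraries. Both native values were above all 6 others, and the second PFA library lay within the range of the fractions. Over 4 lamina against 4 fraction libraries, JUN to JUNB was higher by 1.00 on the log2 scale (exact two-sided permutation p = 0.0571). Of the 5 pairs compared, IER2 to JUNB was higher by 0.56 with no overlap (exact permutation p = 0.0286, the smallest this design allows), and its value adjusted over the 5 pairs was 0.143. DUSP1 to ZFP36 was higher by 0.95 (exact permutation p = 0.0857). EGR1 to FOS differed by 0.09 (exact permutation p = 0.771) and FOSB to FOS by -0.44 (0.429). None of the 5 passed after adjustment.

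**Figure D3:**
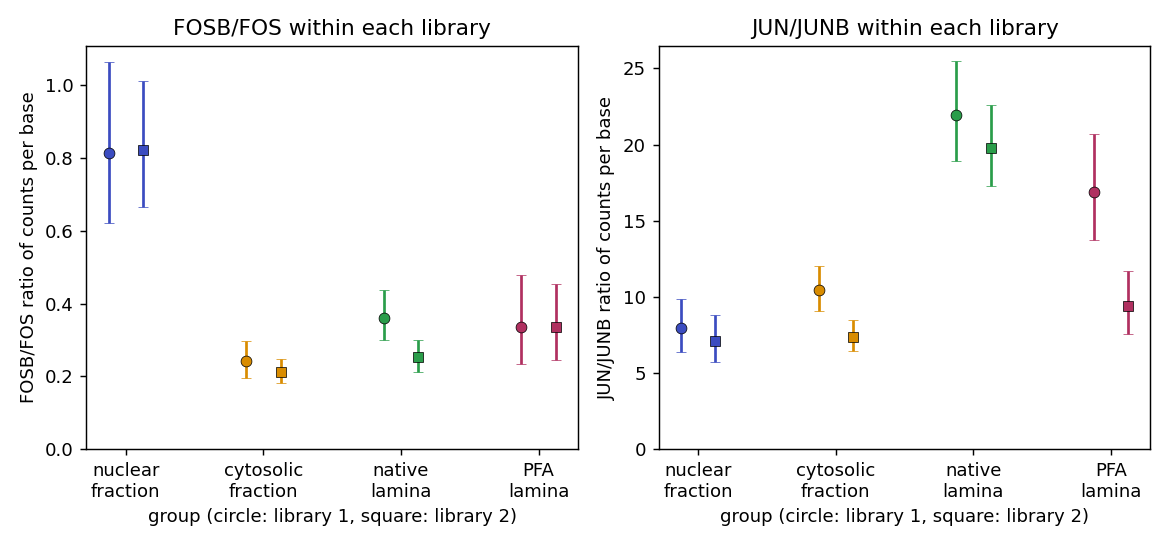
Ratio of counts per base of exon for FOSB to FOS and for JUN to JUNB in each library (circle library 1, square library 2), with 95% intervals for counting error only. FOSB to FOS is 0.813 and 0.821 in the nuclear libraries and at most 0.362 elsewhere, and JUN to JUNB is 22.0 and 19.8 in the native lamina libraries.

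The 2 libraries of a group differed for these genes. In all 4 groups, 9 of the 10 genes were higher in library 2 than in library 1, DUSP1 being the exception, where 10.7% of all genes tested were so. With total counts these figures were 7 genes and 6.79%. No gene of the 10 was more than 2-fold higher in all 4 groups, where 0.0606% of all genes were. EGR1 had the widest gap of the 10 in the nuclear (1.89 on the log2 scale), cytosolic (1.92) and native lamina (1.42) groups. In the PFA lamina group its gap was 0.88, and those of FOS, FOSB and IER3 were wider. FOS also exceeded 2-fold in 3 of the 4 groups, with gaps of 1.69 in the cytosol, 1.04 in native and 1.41 in PFA lamina libraries. JUN had gaps of 0.015 to 0.65. The median gap of all genes lay between -0.02 and 0.06. Of the 10, 4 were above the 95th percentile of all genes in each of the nuclear, cytosolic and native lamina groups and 0 in the PFA group, where the gaps of all genes were wider. The labels name no culture, day or batch shared by libraries of one number, and what separates the libraries was not tested.

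**Figure D4:**
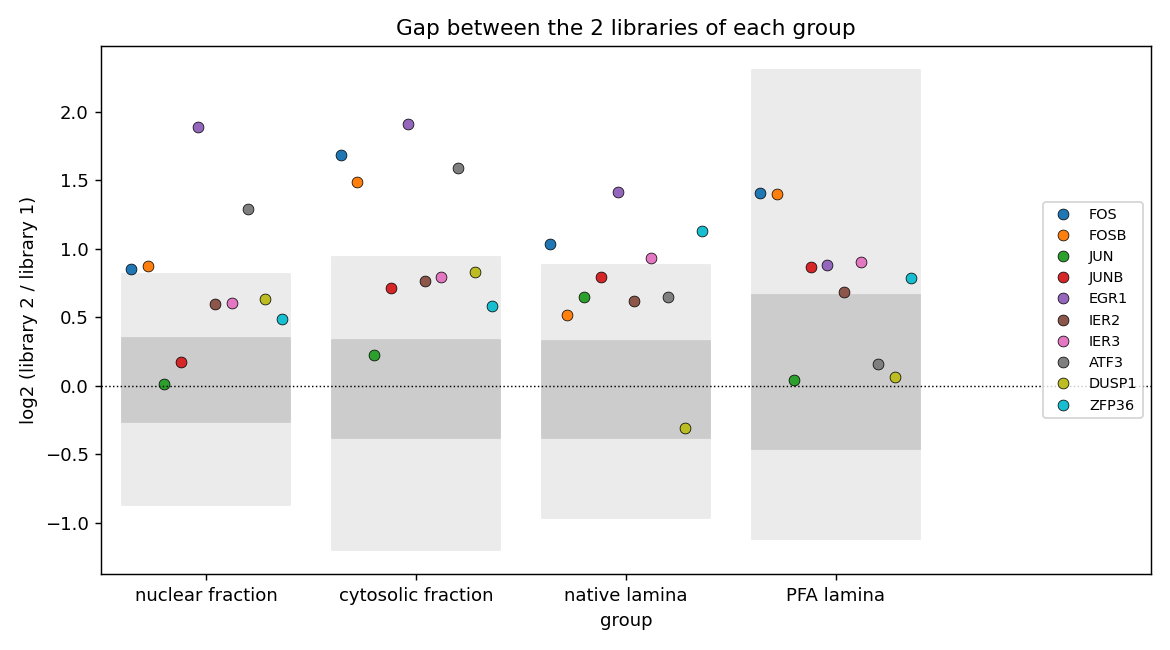
Log2 ratio of library 2 to library 1 for the 10 genes in each group; light bands span the 5th to 95th and dark bands the 25th to 75th percentile of all 16504 genes tested. EGR1 stands at 1.89 and 1.92 in the fractions, above the light bands, and all genes but DUSP1 at the native lamina lie above 0.

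Across the 8 libraries, the mean centred profile of the 10 genes correlated most with FOS itself (Pearson r = 0.962) and JUNB (0.949), and least with FOSB (0.536) and JUN (0.707). Each of the 10 is part of that mean, which by itself raises its r. These r describe 8 libraries that share their groups and have no p. Outside the 10, genes with a high r with that profile were KLHL11 (0.976), FAM219A (0.976), RAB11FIP5 (0.974) and LOC400927-CSNK1E (0.971). KLHL11 measured from 76.7 CPM in the first nuclear to 205.1 in the second cytosolic library.

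Of 34 further immediate early genes, 32 passed the filter, and 12 of them had lower nuclear than cytosolic levels and none had higher, with a median of -0.75, where 21.2% of all genes were lower and 26.1% higher. The lowest were ZFP36L1, a relative of ZFP36, at -1.89 (edgeR adjusted p = 0.00465), MYC at -1.85 (0.00109) and KLF4 at -1.84 (0.00325). Against the nuclear fraction 5 were higher at the native lamina, led by MYC at 1.91 (edgeR adjusted p = 0.00988), and 5 at the PFA lamina, led by KLF10, a zinc finger factor, at 2.41 (0.00372), with none lower in either. Over all genes 3.87% and 9.63% were higher in these comparisons. KLF10 was also the 1 gene of the 32 called in the 4 lamina against the 4 fraction libraries, at 1.34 (edgeR adjusted p = 0.0377).

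Of 20 kinases and transcription factors that act upstream of these genes, 7 were lower and 1 higher in the nucleus than in the cytosol, where 21.2% of all genes were lower and 26.1% higher. ELK1, a partner of serum response factor at CArG boxes, fell by 1.96 on the log2 scale (edgeR adjusted p = 0.000724), MAPK3, the kinase ERK1, at -1.86 (0.0019), and RPS6KA5, the kinase MSK1, at 1.40 (0.00275). ELK1 was higher than in the nuclear fraction in both lamina preparations, by 1.13 in the native (edgeR adjusted p = 0.0362) and 1.38 in the PFA (0.0111). Against the same background, 9 of 20 mRNA decay factors were lower and 1 higher in the nuclear fraction, KHSRP, which binds AU-rich elements, being at -1.53 (edgeR adjusted p = 0.00171).

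Abundant mRNAs known as long-lived were set beside them. All 10 tested were lower in the nuclear fraction, where 21.2% of all genes were, with a median of -2.15. LDHA was lowest at -3.03 (edgeR adjusted p = 0.00116). At the native lamina 9 of these 10 were lower than in the cytosol (median -1.67), while none of the 10 immediate early genes was (median -0.48). Of all genes 6.77% were lower there. The median of the 10 immediate early genes was -0.10 with total counts, a setting that moved the median of all genes by 0.29, and 3 of them in place of 1 were then above 0. At the PFA lamina 1 of the 10 long-lived mRNAs was lower than in the cytosol (median -1.34), where 0.145% of all genes were. None of the 10 immediate early genes was lower there (median -0.69). Against the nuclear fraction, 3 genes of each list were higher at the PFA lamina (medians 0.67 and 0.61), where 9.63% of all genes were. The differences between the lists were not tested. Of the 4 nuclear RNAs that passed, 3 were higher in the nuclear fraction than in the cytosol, where 26.1% of all genes were. MALAT1 was higher by 3.96 (edgeR adjusted p = 0.00134), NEAT1 by 3.93 (0.00195) and KCNQ1OT1 by 5.75 (0.00123). TUG1, at 0.37, was not called (edgeR adjusted p = 0.314).

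Lamina-associated domains were mapped in another line, HCT116 colorectal carcinoma cells, in G1, S and G2. None of the 10 genes overlapped a domain in any stage, where 2.38%, 2.02% and 3.44% of the genes tested did, so a count of 0 in 10 is near the background. The nearest was JUN, 546.5 kb from a domain in G1 and 446.5 kb in S and G2. EGR1 was 901.2 kb away in each stage, and JUNB 6996 kb in G1 and S and 502.3 kb in G2. The median distance over the genes tested was 2793, 3561 and 2460 kb.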

How the data were processed

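The authors deposited raw read counts per gene symbol for 8 RNA libraries, made with featureCounts on hg19 and RefFlat genes, ignoring strand and counting a read for every gene it overlaps, per the file headers. TopHat2 2.1.1, Bowtie2 2.3.2 and Subread 1.5.2 are named in the submitters' processing notes. The deposited domain lists hold intervals and no scores. Genes kept by filterByExpr were tested by group, without a block, in a joint fit of the 8 libraries by edgeR 4.0.16 (TMM, quasi-likelihood test) under R 4.3.3, in 7 comparisons, each adjusted by Benjamini-Hochberg over 16504 genes. CPM is the count relative to the TMM-scaled library size, and levels between genes are compared per exonic kilobase. A log2 fold change is the estimate of the edgeR fit with its default prior count. The log2 gaps between libraries and the correlations use log2 CPM with a prior count of 2. Ratios of 5 gene pairs were tested by exact permutation over 4 against 4 libraries. The edgeR fit was tested on simulated counts, for the nuclear against cytosolic comparison only.

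The 10 genes, the other lists and the motifs were chosen with earlier results of these data known. All 10 are named, from each other list up to 3 called genes with the largest change, and genes from the 5 most correlated with the mean profile, of which 1 is not reported here. FOSB and IER3 values under other settings, and counts given by library number, were picked after values were seen. Alternatives were DESeq2 1.42.0 size factors and its Wald test, total counts, no filter, only the libraries compared, a replicate block, LMNB1 left out, and leaving out each library. Samples labelled K562 have conflicting labels and were not analysed here.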

Additional observations from a re-analysis of the deposited data

How the results depend on the processing

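The share of all genes called depended on the setting. For the native lamina against the nuclear fraction, it was 3.87% higher and 3.44% lower in the reported fit. It was 10% and 1.44% with total counts, and 12.5% and 14.6% with only the libraries compared. With total counts it was 9.97% and 3.52% for the native lamina against the cytosol, and 1.91% and 0.158% for lamina against fractions. It was not counted without a filter, for the Wald test or on leaving out 1 library. The number of the 10 genes called also depended on the setting. For the native lamina against the nuclear fraction, 2 in the reported fit, it was 4 with total counts, 6 without a filter, 4 with DESeq2's Wald test, 6 with only the libraries compared, and 0 to 4 on leaving out 1 library. For the native lamina against the cytosol it was 1 with total counts (JUN) and 1 without a filter (FOS). For the PFA lamina against the cytosol it was 2 without a filter, and against the native lamina 1 without a filter. For 4 lamina against 4 fraction libraries it was 2 with total counts, 2 without a filter, 1 with the Wald test and 0 to 1 on leaving out 1 library. Leaving out 1 library gave 2 to 9 for nuclear against cytosolic and 0 to 4 for the PFA lamina against the nuclear fraction.

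A replicate block, with the library number as a term, called 9 in nuclear against cytosolic, 6 in native lamina against nuclear (JUN, DUSP1, FOS, EGR1, IER2 and ATF3), 4 in PFA lamina against nuclear, 1 in native lamina against cytosolic (IER3), 2 in PFA lamina against cytosolic (EGR1 and FOS) and 1 in lamina against fractions (JUN). Of all genes, the block called 27.6% higher and 22.8% lower in nuclear against cytosolic, and 5.82% and 5.36% in native lamina against nuclear. In PFA lamina against nuclear it called 11.4% and 10.1%. Against the cytosol it called 9.17% and 9.06% for the native and 1.69% and 0.757% for the PFA lamina. In lamina against fractions it called 0.454% and 0.4%. The library gaps of all genes correlated between groups at -0.067 to 0.321, and no label pairs the library numbers.

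With total counts, 8 of the 10 in place of 5 were above 0 in lamina against fractions, and 3 in place of 1 in native lamina against cytosolic. Signs also turned for changes that were small and not called. For the PFA lamina against the nuclear fraction, EGR1 was 0.19 with total counts and 0.16 under the block, and IER3 -0.001 with DESeq2 size factors. On leaving out 1 library there, EGR1 ranged from -0.75 to 1.16, FOS from -0.37 to 1.06, IER3 from -0.45 to 0.48 and ZFP36 from -0.11 to 0.69. At the native lamina FOSB ranged from -0.72 to 0.18, IER3 from -0.33 to 0.63 and ZFP36 from -0.12 to 1.04, and FOSB in nuclear against cytosolic from -0.75 to 0.75. The cause was not tested. Leaving out LMNB1 changed none of these counts, and counting genes wholly inside a domain left 0 of 10. JUN, ATF3 and EGR1 were the most abundant of the 10 with or without division by length. With 2 libraries a group and 2321291 counts in the shallowest, smaller differences were not detectable.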
